A study of Rattus norvegicus with 46 samples.

Results

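Messenger RNA of 35 genes of glycolysis and of the response to low oxygen was followed in rat shoulder tissue after the supraspinatus tendon had been cut. The genes were taken by symbol from the authors' deposited gene tables, which list 23747 symbols, by a rule that uses no measured value. The members were, however, chosen with earlier results of these data known. They comprise 4 glucose and lactate transporters, 13 glycolytic enzymes, 2 lactate dehydrogenases, 3 regulators of glycolytic flux, 3 genes of oxygen sensing, 8 targets of the hypoxia response and 2 isoforms of skeletal muscle, Pfkm and Pgam2, which were kept apart. Levels were available for 34 of the 35 members. Slc2a3, a glucose transporter, is listed at 0 in the authors' deposited tables and has no level here. Car9 and Car12 stand in the files under their other symbols, Ca9 and Ca12.

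Glycolysis splits glucose into pyruvate and needs no oxygen, and lactate dehydrogenase turns pyruvate into lactate, which leaves the cell through monocarboxylate transporters. The transcription factor HIF-1 raises many of these genes when oxygen is short. Its alpha subunit, the product of Hif1a, is marked for breakdown by the prolyl hydroxylases Egln1 and Egln3 when oxygen is present, so that the protein is controlled after translation and the mRNA level of Hif1a is not a measure of HIF-1 activity. Skeletal muscle has its own forms of several glycolytic enzymes, and the supraspinatus tendon joins directly onto muscle.

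The 46 libraries of poly-A RNA fell into 8 groups. Control subacromial bursa and control supraspinatus tendon, from rats without an operation, had 5 libraries each. Injured bursa was collected 3 or 14 days after supraspinatus tenotomy, and injured tendon was collected at the same days with the subacromial bursa left intact or removed, with 6 libraries in each of these 6 groups. No source used here names the strain, sex or age, and no group had a sham operation according to the labels, so that the operation and the tendon cut cannot be told apart. The series text says that tendons of both shoulders were taken and that each rat served as its own control for tendon, but which libraries share a rat is not labelled. The p-values therefore treat libraries as independent and measure the spread between them.

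Library totals ran from 12.4 M to 69.9 M estimated counts (M, 1000000), and 1 bursa library of day 14 held the highest total, with the next at 22.6 M. Markers of tendon cells (8 of 8 genes with a level, summed) stood at 5210 to 11100 CPM (counts scaled to a library total of 1000000) in control tendon and at 66.8 to 4370 CPM in control bursa. Markers of skeletal muscle (11 of 18 genes with a level, summed) stood at 45900 to 72100 CPM in control tendon and at 3680 to 9510 CPM in day 3 intact tendon. The same sum was 3840 to 30800 CPM in day 3 removed tendon, 2590 to 10900 CPM in day 14 intact tendon and 5340 to 24000 CPM in day 14 removed tendon. All 11 genes were lower in each of the 4 injured tendon groups, and no injured tendon library reached the control range. The macrophage sum (7 of 8 genes) moved the other way, from 661 to 1960 CPM in control tendon to 3900 to 6730 CPM in day 3 intact and 1940 to 2750 CPM in day 14 intact tendon, and the fibroblast sum (4 of 4 genes) went from 9520 to 20800 CPM in control to 48900 to 72600 CPM in day 3 intact tendon. Dividing-cell markers (3 of 4 genes) stood at 263 to 376 CPM in day 3 intact tendon and 63.4 to 85.4 CPM in day 14 intact tendon, neutrophil markers (2 of 5 genes) at 13.8 to 28.1 CPM and 1.87 to 4.31 CPM, and endothelial markers (3 of 4 genes) at 361 to 529 CPM and 304 to 375 CPM. Among bursae, control replicate 1 had a muscle sum of 24700 CPM against 681 to 3200 CPM in the other 4. Control bursa replicates 1 and 2 also had TMM scaling factors of 0.583 and 0.571, against 1.164 to 1.196 in the other 3, and stood above those 3 in many glycolytic members, so counts that rest on control bursa, and the values of members named from them, are also given without these libraries. In bulk tissue, fewer cells of a type and less RNA per cell cannot be told apart.

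**Figure D1:**
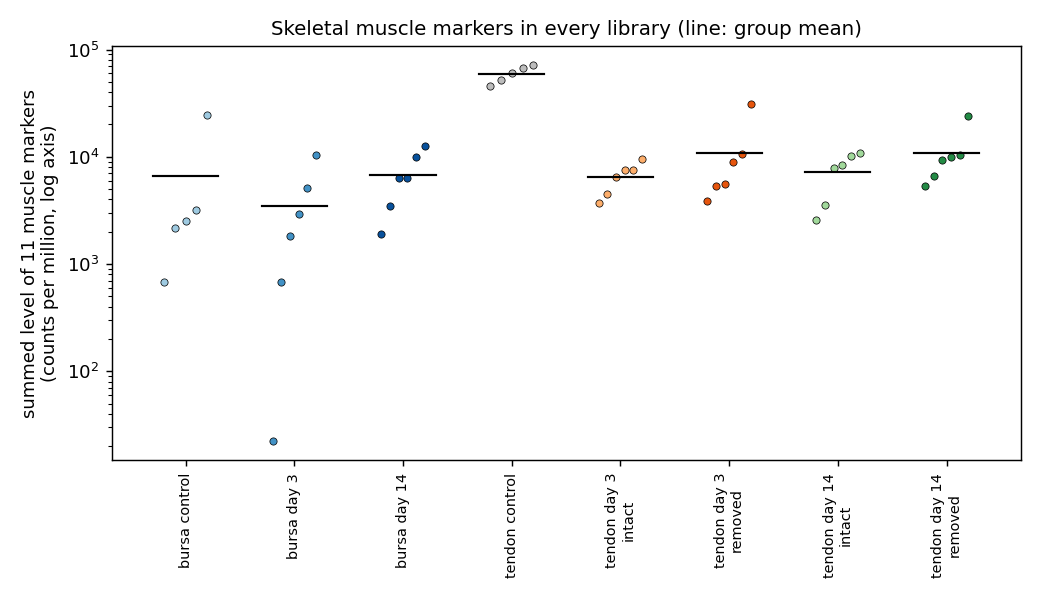
Summed level of 11 skeletal muscle markers (vertical, CPM on a log axis) in each library of the 8 groups (horizontal), with a line at the group mean. Control tendon lies at 45900 to 72100 CPM, above all injured tendon libraries, and 1 control bursa stands at 24700 CPM.

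Promoter windows of 300 bases, 250 before and 50 after the RefSeq gene start (build GRCr8), were given for 32 of the 35 members. The core of the hypoxia response element, written as ACGTG or GCGTG and searched on both strands with overlapping matches allowed, was present in 22 of these 32 windows (68.8%). It was present in 41.6% of all 33469 promoter windows of this length. The 4 members that were called higher in at least 4 of the 6 comparisons of injured tissue with control are shown, since they are the ones whose mRNA rose most often. The 250 bases before each start are printed, 5′ to 3′ on the gene's strand, with matches in capitals.
Hif1a, chr6:98359648-98359897, plus strand: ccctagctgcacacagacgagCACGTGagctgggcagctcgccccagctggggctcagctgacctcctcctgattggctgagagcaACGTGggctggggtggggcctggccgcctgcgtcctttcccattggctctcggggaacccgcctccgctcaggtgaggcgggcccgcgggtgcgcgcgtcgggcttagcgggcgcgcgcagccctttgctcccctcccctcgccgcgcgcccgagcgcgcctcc
Pfkl, chr20:10663715-10663964, plus strand: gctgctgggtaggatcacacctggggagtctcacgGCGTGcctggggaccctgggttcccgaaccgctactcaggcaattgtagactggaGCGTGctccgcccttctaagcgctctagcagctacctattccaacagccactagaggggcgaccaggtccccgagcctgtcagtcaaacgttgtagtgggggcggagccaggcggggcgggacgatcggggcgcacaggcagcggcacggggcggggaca
Car9, chr5:62558774-62559023, plus strand: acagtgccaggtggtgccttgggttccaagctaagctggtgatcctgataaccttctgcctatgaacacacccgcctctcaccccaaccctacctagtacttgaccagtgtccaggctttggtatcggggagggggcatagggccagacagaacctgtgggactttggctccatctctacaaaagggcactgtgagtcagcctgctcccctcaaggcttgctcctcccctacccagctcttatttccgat
Hk1, chr20:30874815-30875064, minus strand: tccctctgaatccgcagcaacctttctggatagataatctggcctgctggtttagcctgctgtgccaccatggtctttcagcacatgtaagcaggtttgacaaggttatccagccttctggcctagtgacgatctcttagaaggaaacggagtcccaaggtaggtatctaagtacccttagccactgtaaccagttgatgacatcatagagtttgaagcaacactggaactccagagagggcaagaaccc
The Hif1a stretch held 3 matches, of which a pair overlaps within 1 palindrome, the first beginning 229 bases before the start. The Pfkl stretch held 2 matches, at 215 and 160 bases before the start. Car9 held 1 match in its window, outside the printed stretch, and Hk1 held 0. A match is a description of the letters in this window.

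Injured tendon differed from control tendon in most members, and most of those that differed were lower. With the bursa intact, 9 members were higher and 20 lower at day 3, and 5 higher and 23 lower at day 14, among 34 tested (edgeR quasi-likelihood test, Benjamini-Hochberg adjusted p under 0.05 over all features). Among all features of the day 3 comparison 30.9% were higher and 30.6% lower, and at day 14 32.3% were higher and 30.2% lower. With the bursa removed, 7 members were higher and 21 lower at day 3, against 29.1% and 29.5% of all features, and 5 were higher and 23 lower at day 14, against 31.3% and 29.7%. The share of higher members lay below that of all features, whereas the share of lower members lay above it. The median log2 fold change of the 32 members other than the muscle isoforms was -0.39 at day 3 and -0.82 at day 14 with the bursa intact, beside 0.00 and 0.03 for all features. The 4 comparisons share the 5 control libraries. The members higher in all of them were Hif1a, Car9, Hk1 and Pfkl, 20 were lower in all of them, and Adm and Ankrd37 passed in none. How many of all features were called in all 4 was not counted, so these counts are not read as a trait of the members. Muscle, macrophage and fibroblast markers moved with these groups. So did tendon cell markers, which went from 5210 to 11100 CPM in control to 1920 to 4660 CPM in day 3 intact tendon with 6 of 8 genes called lower, and adipocyte (248 to 768 CPM to 68.8 to 300 CPM), red blood cell (15.3 to 40.4 CPM to 59.1 to 136 CPM) and dividing-cell markers (6.46 to 12.2 CPM to 263 to 376 CPM). Their part in the tendon results was not tested beyond the fit with muscle level given below.

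**Figure D2:**
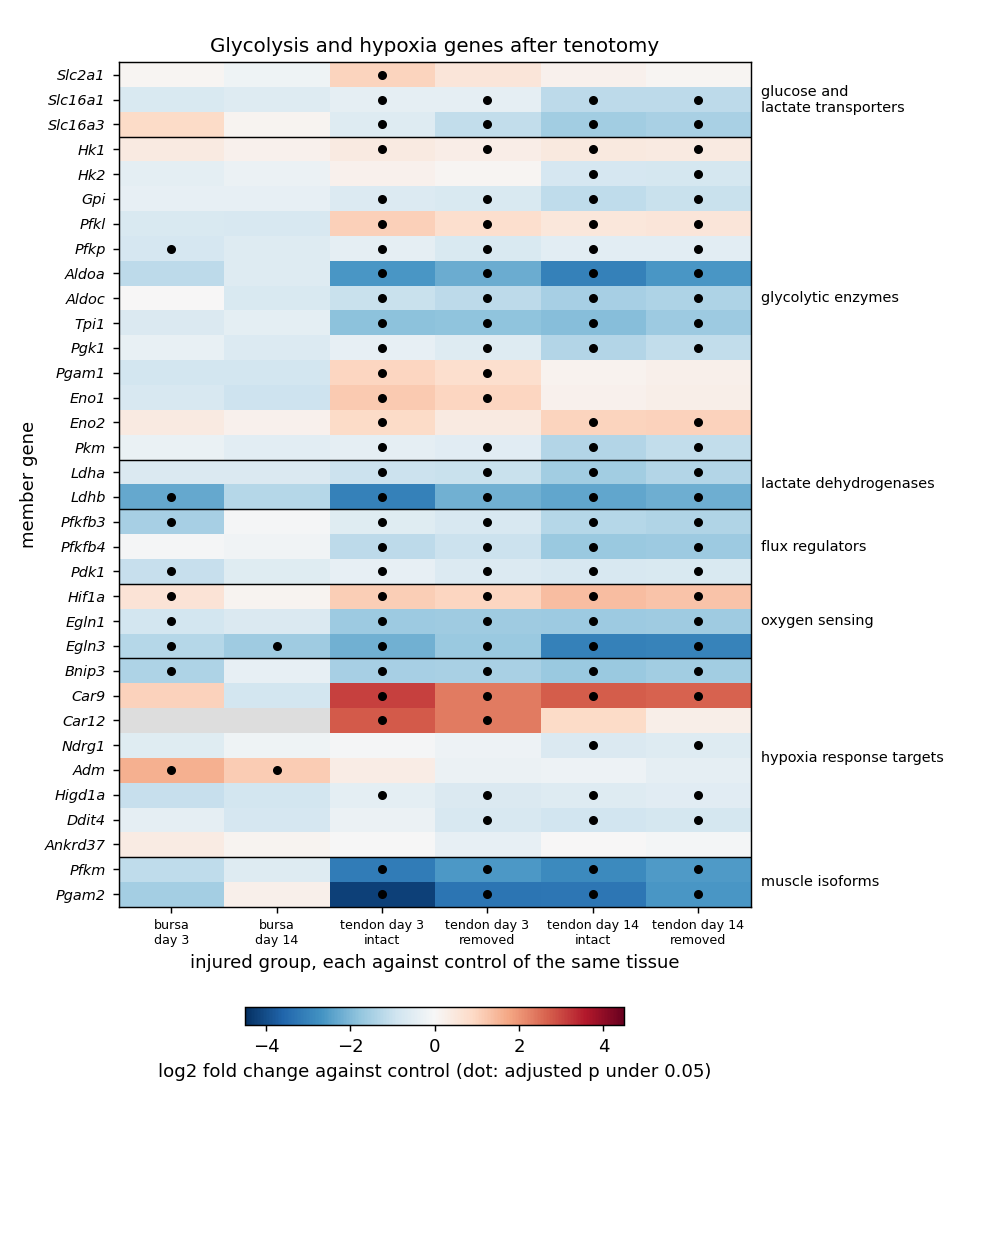
Log2 fold change (colour) of 34 members (rows, grouped by role) in 6 injured groups, each against control of the same tissue (columns). Black dots mark an adjusted p under 0.05, grey marks a gene below the count filter, and the tendon columns hold far more dots than the bursa columns.

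The oxygen-sensing genes moved apart in tendon, with the factor up and both hydroxylases down. Hif1a stood at 110, 139, 142, 145 and 167 CPM in the 5 control tendons, at 213 to 372 CPM (median 314) in day 3 intact tendon and at 289 to 411 CPM (median 383) in day 14 intact tendon. All libraries of both intact groups lay above all controls. The log2 fold change (± SE) was 1.10 ± 0.15 (adjusted p = 3.9e-07) at day 3 and 1.39 ± 0.15 (adjusted p = 1.1e-08) at day 14. With the bursa removed it was 0.97 ± 0.15 and 1.30 ± 0.15, and at day 3 the lowest removed library and the highest control both stood at 167 CPM.

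Egln1, the main hydroxylase that marks HIF alpha subunits, stood at 67.8, 81.6, 84.8, 95.3 and 101 CPM in control tendon. It fell to 24 to 32.1 CPM (median 27.4) at day 3 and 23.2 to 31.3 CPM (median 28.1) at day 14 with the bursa intact, with no overlap. The log2 fold change lay between -1.65 and -1.61 in the 4 injured groups, with an SE of 0.13 in each, and the removed groups held 21.9 to 44 CPM at day 3 and 25.1 to 30.3 CPM at day 14. Egln3, a hydroxylase that HIF-1 itself induces, fell further. Its controls stood at 52.3, 67.3, 85.4, 100 and 128 CPM, against 13 to 28.7 CPM (median 18.5) at day 3 and 5.73 to 16.1 CPM (median 10.5) at day 14 with the bursa intact. The log2 fold change was -2.17 ± 0.34 (adjusted p = 3e-06) at day 3 and -3.04 ± 0.35 (adjusted p = 2.6e-08) at day 14.

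The 8 hypoxia response targets split. Car9 and Car12 are membrane carbonic anhydrases that handle the acid of glycolytic cells, and both were low in control tendon. Car9 stood at 0.696, 0.828, 0.907, 1.98 and 2.46 CPM in controls and at 8.04 to 16.1 CPM (median 12.1) in day 3 intact tendon. It was 3 to 15.1 CPM (median 10.8) in day 14 intact tendon, again above all controls. The log2 fold change was 3.08 ± 0.47 (adjusted p = 2.4e-06) at day 3 and 2.72 ± 0.47 (adjusted p = 1.3e-05) at day 14. With the bursa removed it was 2.34 ± 0.47 at day 3, where replicate 1 at 2.41 CPM lay within the control range, and 2.67 ± 0.47 at day 14. Car12 stood at 0.0753, 0.076, 0.174, 0.793 and 0.924 CPM in control tendon and rose to 1.91 to 4.68 CPM (median 2.45) in day 3 intact tendon (log2 fold change 2.78 ± 0.60, adjusted p = 0.00023). At day 14 it was 0.87 with an adjusted p of 0.2, which missed the threshold. Both genes rest on few reads in controls, which limits these folds.

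Bnip3, a mitochondrial protein of mitophagy, went the other way. Its 5 control tendons held 276, 354, 373, 394 and 420 CPM, and all 24 injured tendons held less, with 97.1 to 178 CPM (median 133) at day 3 and 80.3 to 143 CPM (median 109) at day 14 with the bursa intact. The log2 fold changes were -1.50 ± 0.23 (adjusted p = 3.4e-06) and -1.69 ± 0.23 (adjusted p = 6.4e-07), and with the bursa removed -1.45 ± 0.23 and -1.57 ± 0.23. Higd1a, a mitochondrial inner membrane protein, was lower in all 4 comparisons. It held 39.9, 43.7, 44.1, 52.7 and 55.2 CPM in controls and 24.4 to 35.6 CPM (median 32.4) in day 14 intact tendon (-0.59 ± 0.11, adjusted p = 5.3e-05), with no overlap. Ndrg1, a stress-responsive gene, held 107, 108, 116, 125 and 141 CPM in controls and 63.8 to 95.5 CPM (median 70.8) at day 14 intact, again without overlap. It passed at day 14 (-0.66 ± 0.14, adjusted p = 0.00019) and not at day 3 (-0.05 ± 0.14, adjusted p = 0.78). Ddit4, an inhibitor of mTORC1 signalling, was called lower in 3 comparisons, but its day 14 intact value of -0.87 ± 0.29 (adjusted p = 0.011) became -0.59 (adjusted p = 0.078) without control replicate 2. Ankrd37 and Adm, an ankyrin repeat protein and the vasodilator peptide adrenomedullin, had log2 fold changes of -0.00 and 0.32 at day 3 intact and did not pass.

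Among the 3 transporters with a level, Slc2a1 passed as higher in 1 of the 4 injured tendon groups and both lactate transporters as lower in all 4. Slc2a1, the widely expressed glucose transporter GLUT1, stood at 19.1, 20.4, 20.7, 24.4 and 31.1 CPM in control tendon and at 36.8 to 62.9 CPM (median 42) in day 3 intact tendon, above all controls. Its log2 fold change was 1.00 ± 0.25 (adjusted p = 0.001). At day 14 intact it was 0.19 ± 0.25 (adjusted p = 0.51), and at day 3 removed 0.55 ± 0.25 (adjusted p = 0.058). Slc16a1, the lactate transporter MCT1, held 58.9, 61.5, 62.2, 77.5 and 89.6 CPM in controls and 28.8 to 32.5 CPM (median 31.3) in day 14 intact tendon, where no library reached the controls. The log2 fold change was -0.41 ± 0.12 at day 3 and -1.19 ± 0.12 (adjusted p = 2.4e-09) at day 14. Slc16a3, the lactate exporter MCT4, held 52.1, 53.8, 54.1, 81.8 and 94.4 CPM in controls and 15.7 to 32.1 CPM (median 21.4) in day 14 intact tendon, with a log2 fold change of -1.56 ± 0.24 (adjusted p = 2.8e-06). Its day 3 intact value of -0.59 ± 0.24 (adjusted p = 0.034) was lost without control replicate 4 (-0.47, adjusted p = 0.1), control replicate 5, or day 3 intact replicates 3 or 5.

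**Figure D3:**
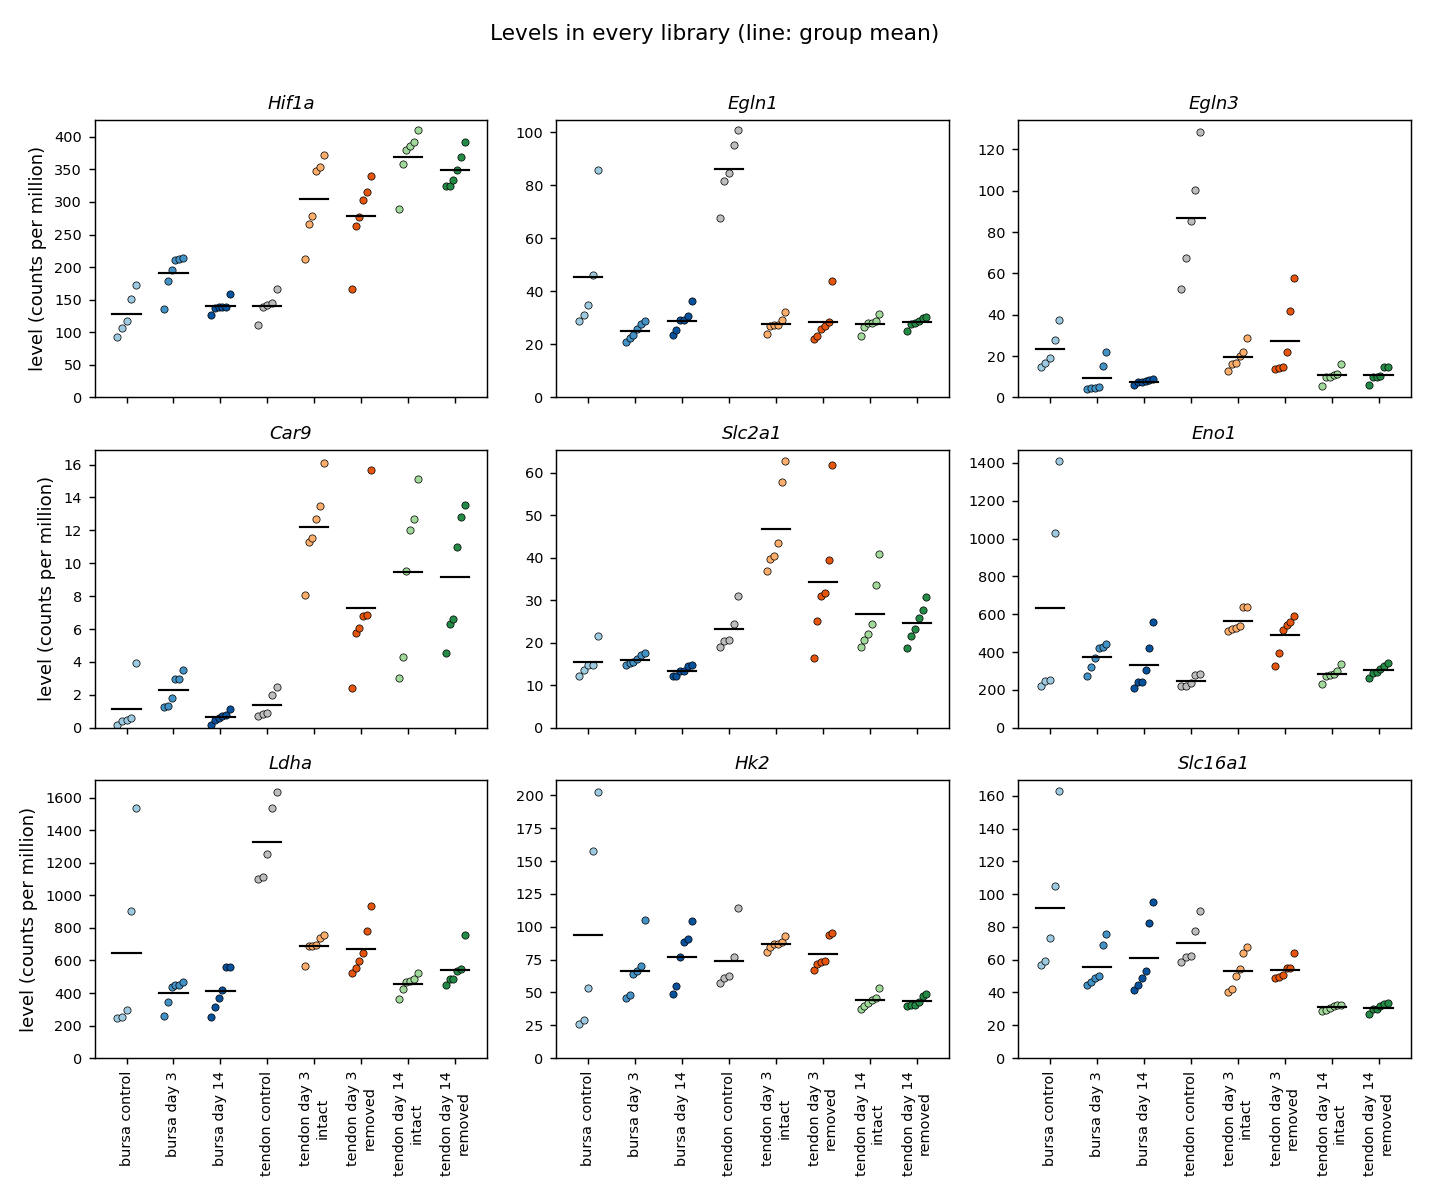
Level of 9 members (vertical, CPM) in each library of the 8 groups (horizontal), with a line at the group mean. Hif1a and Car9 lie higher in injured than in control tendon, Egln1 and Ldha lie lower, and the tendon groups' highest means of Slc2a1 and Eno1 are at day 3 with the bursa intact.

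Of 13 glycolytic enzymes, 7 fell and 5 rose at day 3 intact, beside 30.6% and 30.9% of all features, and 8 fell and 3 rose at day 14 intact, beside 30.2% and 32.3%. Aldolase A (Aldoa) and triosephosphate isomerase (Tpi1), the enzymes that cleave the sugar and interconvert the products, fell most. Aldoa held 4290, 5145, 6061, 6505 and 6804 CPM in control tendon, 681 to 1300 CPM (median 937) at day 3 intact and 405 to 887 CPM (median 775) at day 14 intact. The log2 fold changes were -2.63 ± 0.33 (adjusted p = 1.1e-07) and -3.05 ± 0.33 (adjusted p = 1.2e-08). Tpi1 held 875, 936, 1061, 1358 and 1395 CPM in controls and 247 to 357 CPM (median 326) at day 3 intact, with -1.83 ± 0.21 (adjusted p = 2.1e-08) at day 3 and -1.93 ± 0.21 (adjusted p = 9.5e-09) at day 14. No injured library reached the controls for either gene.

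The enzymes that follow in the pathway and are used in most tissues differed between the days. Phosphoglycerate kinase Pgk1 was -0.37 ± 0.12 at day 3 intact and -1.30 ± 0.12 (adjusted p = 6.5e-10) at day 14 intact, and pyruvate kinase Pkm was -0.42 ± 0.11 and -1.30 ± 0.11 (adjusted p = 8.6e-11). Pgk1 held 496, 547, 662, 707 and 726 CPM in controls and 209 to 303 CPM (median 256) at day 14 intact. Pkm held 810, 906, 1162, 1186 and 1298 CPM in controls and 402 to 475 CPM (median 439) at day 14 intact, also without overlap. Gpi, the isomerase of the second step, followed the same course at -0.62 ± 0.10 and -1.13 ± 0.10. Aldoc, another aldolase, held 8.96, 10.5, 12.3, 12.3 and 22.6 CPM in controls and 3.44 to 6.18 CPM (median 4.77) at day 14 intact, with -1.02 ± 0.23 at day 3 and -1.50 ± 0.24 at day 14. Pfkp, the platelet-type phosphofructokinase, was -0.42 ± 0.14 and -0.49 ± 0.14. The day 3 intact value of Pfkp did not pass without control replicate 1 (-0.28, adjusted p = 0.069).

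Other enzymes rose. Eno1, the widely expressed enolase, held 219, 222, 236, 278 and 285 CPM in control tendon and 512 to 641 CPM (median 534) at day 3 intact. Its log2 fold change of 1.17 ± 0.13 (adjusted p = 1.2e-08) at day 3 was followed by 0.19 ± 0.13 (adjusted p = 0.19) at day 14. Pgam1, the widely expressed phosphoglycerate mutase, did likewise, from 89.6, 101, 112, 115 and 135 CPM in controls to 182 to 272 CPM (median 207) at day 3 intact, with 0.98 ± 0.14 (adjusted p = 1.5e-06) and then 0.17 ± 0.14 (adjusted p = 0.32). Pfkl, the liver-type phosphofructokinase whose promoter stretch is printed above, held 30.6, 32.8, 35.3, 39.8 and 44.4 CPM in controls and 70.3 to 85.4 CPM (median 78.1) at day 3 intact. It was 1.07 ± 0.13 (adjusted p = 7.3e-08) at day 3 and 0.49 ± 0.13 (adjusted p = 0.0017) at day 14. Eno2, the neuronal-type enolase, was 0.85 ± 0.20 (adjusted p = 0.0006) at day 3 and 1.00 ± 0.20 (adjusted p = 0.00011) at day 14, when its libraries (33.3 to 48.6 CPM) lay above all controls (14.5 to 23.8 CPM). Hk1, the housekeeping hexokinase, rose less, by 0.42 ± 0.11 (adjusted p = 0.0011) at day 3 and 0.42 ± 0.11 (adjusted p = 0.001) at day 14. With the bursa removed its day 3 value of 0.29 ± 0.10 (adjusted p = 0.019) became 0.23 (adjusted p = 0.078) without control replicate 4, and also missed the threshold without control replicate 2 or removed replicate 3. Hk2, the inducible hexokinase, was 0.21 ± 0.13 (adjusted p = 0.17) at day 3 intact and -0.77 ± 0.13 (adjusted p = 1.3e-05) at day 14 intact, with 37.6 to 53.7 CPM at day 14 against 56.9, 60.6, 62.4, 77 and 114 CPM in controls.

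Both lactate dehydrogenase subunits fell. Ldha, the form that favours lactate, held 1101, 1116, 1256, 1538 and 1639 CPM in control tendon, 565 to 757 CPM (median 693) at day 3 intact and 362 to 521 CPM (median 471) at day 14 intact. The log2 fold changes were -0.96 ± 0.14 (adjusted p = 1.9e-06) and -1.55 ± 0.15 (adjusted p = 9.3e-10). Ldhb, the form common in oxidative tissue, fell further, from 61.6, 112, 120, 196 and 231 CPM to 11.9 to 33.9 CPM (median 13.5) at day 3 intact (-3.04 ± 0.42, adjusted p = 6.2e-07) and 18 to 38.6 CPM (median 30.7) at day 14 intact (-2.33 ± 0.41, adjusted p = 2e-05). Pfkfb3 and Pfkfb4 make the activator of phosphofructokinase, and Pdk1 limits the oxidation of pyruvate in the mitochondrion. All 3 of these flux regulators were lower in all 4 injured tendon groups. Pfkfb3 held 65.7, 83.9, 95.7, 104 and 189 CPM in controls and 36.6 to 49.7 CPM (median 46.1) at day 14 intact, a log2 fold change of -1.30 ± 0.18 (adjusted p = 7.5e-07). Its day 3 intact value of -0.53 ± 0.18 (adjusted p = 0.013) became -0.23 (adjusted p = 0.18) without control replicate 2. Pfkfb4 held 5.36, 5.57, 8.05, 8.1 and 9.75 CPM in controls, 2.4 to 4.66 CPM (median 3.13) at day 3 intact and 1.32 to 4.02 CPM (median 2.28) at day 14 intact, with log2 fold changes of -1.18 ± 0.27 and -1.66 ± 0.28. Pdk1 held 26.9, 27, 29, 35.6 and 37.7 CPM in controls and 16.6 to 22.1 CPM (median 19.1) at day 14 intact, with -0.36 ± 0.11 at day 3 and -0.71 ± 0.11 at day 14. All 3 genes had every day 14 library below every control.

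The muscle isoforms moved with the muscle markers. Pfkm, the muscle phosphofructokinase, held 944, 964, 1294, 1475 and 1493 CPM in control tendon and 80.1 to 209 CPM (median 144) at day 3 intact, a log2 fold change of -3.13 ± 0.42 (adjusted p = 3.2e-07). Pgam2, the muscle phosphoglycerate mutase, held 779, 780, 840, 1154 and 1195 CPM in controls and 19.6 to 99 CPM (median 47.8) at day 3 intact, at -4.21 ± 0.62 (adjusted p = 1.4e-06). Day 3 removed replicate 1, with the highest muscle sum of the injured tendons, held 587 CPM of Pfkm and 358 CPM of Pgam2. Day 14 intact tendon was -2.88 ± 0.41 for Pfkm and -3.26 ± 0.59 for Pgam2. The estimated counts were also expressed as shares within isoform families, which depend on transcript length and were compared only across groups. Pgam2 made up 89.2% ± 3.09 (SD, n = 5) of Pgam1 and Pgam2 counts in control tendon and 19.2% ± 9.54 (SD, n = 6) at day 3 intact. It was 42.2% ± 15.1 at day 14 intact and 18.9% ± 11.3 in control bursa. Pfkm made up 93.5% ± 1.51 of the 3 phosphofructokinases in control tendon, 54.2% ± 10 at day 3 intact and 64.3% ± 12 at day 14 intact. Hk2 made up 62.1% ± 7.4 of Hk1 and Hk2 in control tendon, 59.6% ± 1.87 at day 3 intact and 42.8% ± 4.28 at day 14 intact, where the highest library, at 50.4%, lay below all controls. Ldhb made up 9.89% ± 4.29 of Ldha and Ldhb in control tendon, 2.52% ± 1.19 at day 3 intact and 43.4% ± 5.84 in control bursa. Aldoc made up 0.244% ± 0.123 of Aldoa and Aldoc in control tendon and 0.726% ± 0.166 at day 3 intact.

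**Figure D4:**
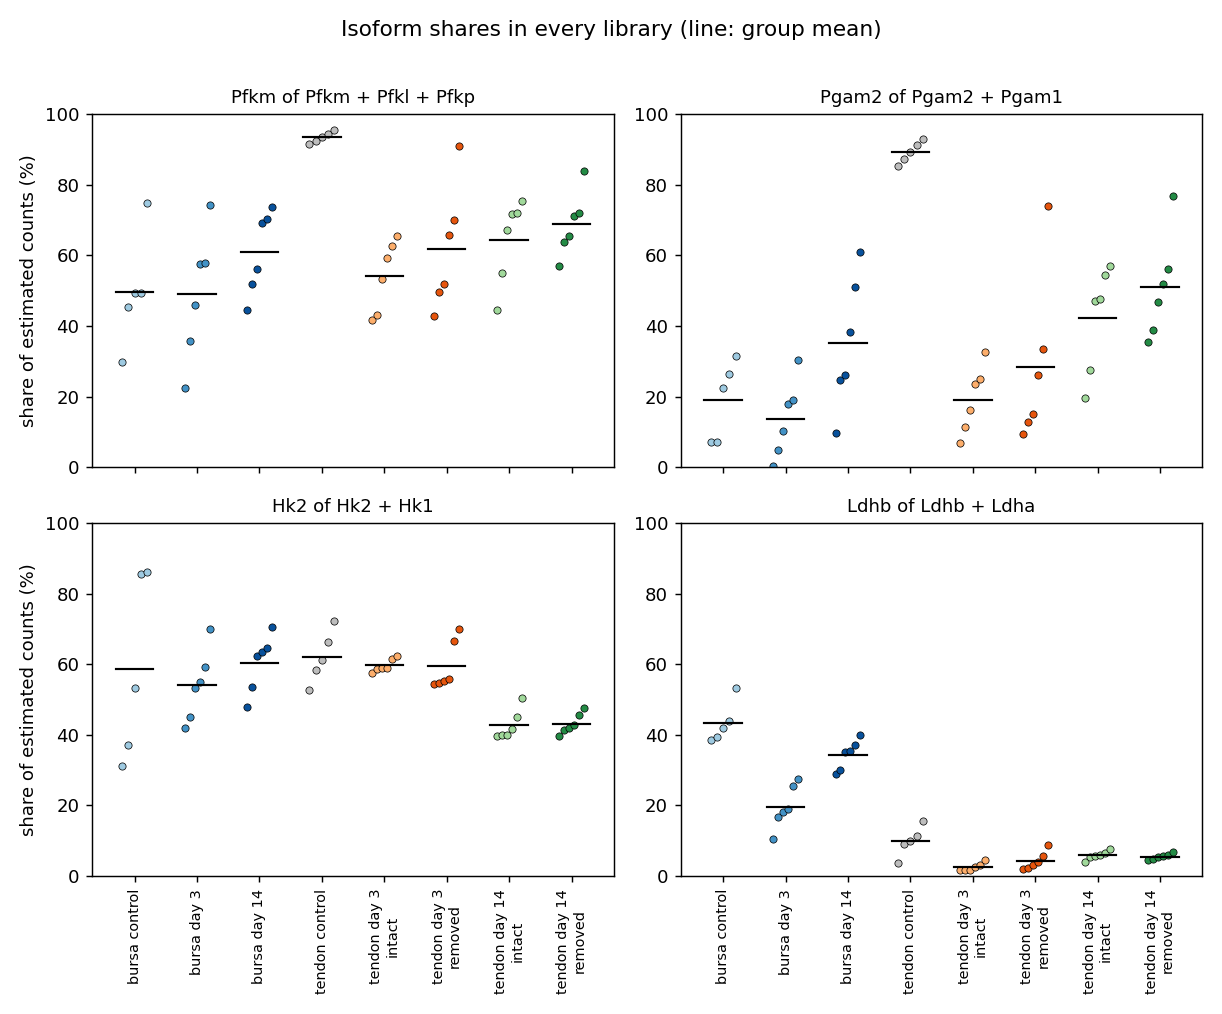
Share of estimated counts within 4 isoform families (vertical, percent) in each library of the 8 groups (horizontal), with a line at the group mean. The muscle isoforms Pfkm and Pgam2 take their highest shares in control tendon, at means of 93.5% and 89.2%, and the Hk2 share is lower at day 14 than at day 3 in tendon.

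Fewer calls against control tendon were made with the muscle level in the fit, in members and over all features. When the mean log2 level of the muscle markers entered the fit, 3 members were called in place of 29 at day 3 intact and 9 in place of 28 at day 3 removed. At day 14 there were 19 in place of 28 with the bursa intact and 21 in place of 28 with it removed. Among all 18344 features, 3596 were called in place of 11271 at day 3 intact and 4514 in place of 10749 at day 3 removed. At day 14 these counts were 4375 in place of 11465 intact and 5613 in place of 11193 removed. Control and injured tendons did not overlap in muscle RNA, so the adjusted values rest on the spread within groups. This fit cannot tell the muscle level apart from injury. At day 3 intact, Egln1 (-0.98, adjusted p = 0.00014), Aldoc (-1.58, adjusted p = 0.012) and Pfkp (-0.99, adjusted p = 0.0021) were still called. None of the 9 higher members was, with Car9 at 1.82 (adjusted p = 0.1), Eno1 at 0.40 (adjusted p = 0.066) and Hif1a at 0.42 (adjusted p = 0.22). Among the lower members no longer called were Bnip3 at -0.42 (adjusted p = 0.46) and Egln3 at -0.54 (adjusted p = 0.51). At day 14 intact, Hif1a was still higher at 0.79 (adjusted p = 0.0063) and Egln3 still lower at -1.63 (adjusted p = 0.011). Bnip3, at -0.75 (adjusted p = 0.098), missed the threshold there. Pkm (-1.24, adjusted p = 1.6e-05), Pgk1 (-1.25, adjusted p = 6.9e-05), Slc16a1 (-1.16, adjusted p = 0.00015) and Pfkfb3 (-1.25, adjusted p = 0.0049) kept nearly the size they had without the covariate. Aldoa moved to -1.04 (adjusted p = 5e-06), Ldhb to -0.07 (adjusted p = 0.93) and Pgam2 to 0.30 (adjusted p = 0.38). Hk1 changed sign, to -0.12 (adjusted p = 0.57) at day 14 intact, and so did Pfkl at -0.23 (adjusted p = 0.25).

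**Figure D5:**
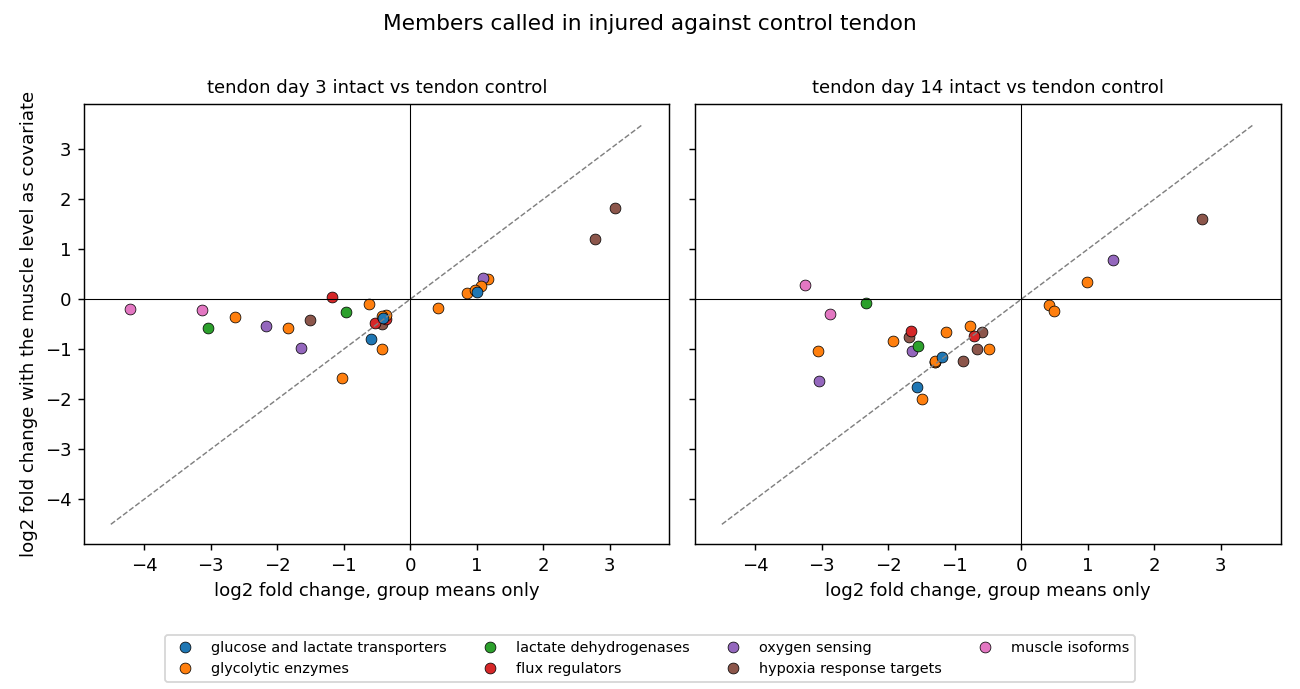
Log2 fold change against control tendon with the muscle level as a covariate (vertical) and with group means only (horizontal) for members called in the latter, at day 3 intact (left) and day 14 intact (right), coloured by role. The dashed line marks equal values, and the vertical values of Pfkm, Pgam2 and Ldhb run from -0.56 to 0.296.

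Between the days after injury, where the muscle sums overlapped, many members fell from day 3 to day 14. Over the same interval, with the bursa intact, macrophage, neutrophil and dividing-cell sums fell, and the tendon cell sum rose from 1920 to 4660 CPM to 7270 to 10300 CPM and the fibroblast sum from 48900 to 72600 CPM to 72700 to 101000 CPM. Their part in these differences was not tested. With the bursa intact, 16 members were lower and 0 higher at day 14 than at day 3, against 19.8% lower and 19.3% higher among all features. With the bursa removed, 12 were lower and 1 higher, against 20.6% and 20.2%. Hk2 fell from 80.8 to 93 CPM to 37.6 to 53.7 CPM with the bursa intact, a log2 difference of -0.98 ± 0.13 (adjusted p = 6.1e-07). Eno1 fell from 512 to 641 CPM to 231 to 337 CPM (-0.98 ± 0.12, adjusted p = 2.9e-07). Pgk1 fell from 401 to 616 CPM to 209 to 303 CPM (-0.93 ± 0.12, adjusted p = 3e-07). For each of these genes the libraries of the days did not overlap with the bursa intact, and with the bursa removed the differences were -0.87 ± 0.13, -0.69 ± 0.12 and -0.52 ± 0.12. Pkm (-0.88 ± 0.10, adjusted p = 1.1e-07), Slc16a1 (-0.78 ± 0.11, adjusted p = 3.5e-06), Slc16a3 (-0.98 ± 0.23, adjusted p = 0.0012) and Pgam1 (-0.81 ± 0.14, adjusted p = 2.5e-05) fell with the bursa intact, also without overlap. Car12 fell by day 14 in both conditions, at -1.90 ± 0.52 (adjusted p = 0.0045) intact and -2.06 ± 0.53 (adjusted p = 0.0027) removed. Egln3 fell from day 3 to day 14 at -0.87 ± 0.33 (adjusted p = 0.035) intact, a call that was lost without, among others, day 3 intact replicate 2 (-0.73, adjusted p = 0.092), and at -1.31 ± 0.33 (adjusted p = 0.0019) removed. Eno2 was the member that rose, at 0.62 ± 0.19 (adjusted p = 0.009) with the bursa removed. Hif1a (0.28 ± 0.14, adjusted p = 0.11), Egln1 (-0.00 ± 0.12, adjusted p = 0.99) and Car9 (-0.36 ± 0.38, adjusted p = 0.49) did not pass between the days with the bursa intact. With the muscle level in the fit the 16 calls of the intact comparison all remained, and 20 members were called. Over all features 8032 were then called in place of 7157.

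Removal of the bursa was not followed by a called difference in any member. Against intact tendon, 0 of 34 members and 0 of 18344 features were called at day 3 (0% higher and 0% lower) and the same at day 14 (0% and 0%). At an unadjusted p under 0.05 there were 8 members at day 3 and 0 at day 14, and DESeq2 also called 0 members at both days, with 10 and 6 features. Log2 differences of removed over intact ran from -0.74 to 0.93 at day 3 and from -0.6 to 0.64 at day 14, with a median SE of 0.18. At day 3, 24 of 34 members were lower with the bursa removed. Neither this count nor the unadjusted one was made over all features, so they are not read as a trait of the members. Slc16a3 was -0.54 ± 0.23 (adjusted p = 0.68), Slc2a1 -0.45 ± 0.23 (adjusted p = 0.68) and Pfkl -0.33 ± 0.12 (adjusted p = 0.68). Slc16a3 is the 1 member that differs in the authors' deposited table of this comparison, with a log2 fold change of 0.548 for intact over removed and an adjusted p of 0.0072. It held 33.8 to 57.3 CPM in the intact and 18.9 to 50.7 CPM in the removed group, which overlapped. A p that misses the threshold does not show that the groups are alike.

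Injured bursa changed less by count. At day 3, 2 of 33 tested members were higher and 7 lower than in control bursa, against 20.5% higher and 22.2% lower among all features. At day 14, 1 was higher and 1 lower, against 8.2% and 5.64%, and between the days 2 rose and 2 fell, against 8.19% and 10.7%. Car12 was below the count filter in bursa. Over the same groups adipocyte markers (4 of 5 genes, summed) went from 8790 to 17400 CPM in control bursa to 2570 to 5970 CPM at day 3 and 6350 to 8610 CPM at day 14, red blood cell markers (4 of 5 genes) from 1000 to 2100 CPM to 220 to 563 CPM and 532 to 1200 CPM, and macrophage markers from 360 to 1480 CPM to 2800 to 3980 CPM and 1570 to 2840 CPM. Fibroblast markers went from 1500 to 13700 CPM to 37100 to 60500 CPM at day 3 and 33300 to 52600 CPM at day 14, and dividing-cell markers from 2.71 to 9.96 CPM to 111 to 289 CPM and 23 to 50.1 CPM. Their part in the bursa results was not tested. Leaving out single control bursae moved the day 3 count to 16 (without replicate 4) and 14 (without replicate 5), and the day 14 count to 1, 5 and 4 without replicates 1, 4 and 5. Without both replicates 1 and 2, 6 members were higher and 3 lower at day 3, and 4 of the 9 calls remained, and at day 14 0 of 2 remained. That fit called 7138 of 18865 features at day 3, in place of 7795 of 18247, and 2051 in place of 2527 at day 14.

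Adm rose in bursa. It held 3.1, 3.94, 4.79, 7.16 and 9.39 CPM in the 5 control bursae and 10.7 to 24.6 CPM (median 16.5) at day 3, above all controls, with a log2 fold change of 1.58 ± 0.31 (adjusted p = 0.00073), or 1.29 (adjusted p = 0.0058) without control replicates 1 and 2. At day 14 it was 1.16 ± 0.30 (adjusted p = 0.02), and without control replicates 1 and 2 this became 0.84 (adjusted p = 0.1). Hif1a rose at day 3, from 93.3, 106, 117, 151 and 172 CPM to 136 to 215 CPM (median 203) (0.62 ± 0.15, adjusted p = 0.0036, and 0.91, adjusted p = 7.5e-05 without control replicates 1 and 2), and fell again by day 14 (-0.49 ± 0.14, adjusted p = 0.023), a call that missed the threshold without day 14 replicate 3 (-0.47, adjusted p = 0.051) or day 3 replicate 4. Bnip3 held 236, 240, 271, 381 and 481 CPM in controls and 92.4 to 189 CPM (median 103) at day 3, where all libraries lay below all controls (-1.39 ± 0.21, adjusted p = 9.8e-05). It returned to 219 to 315 CPM (median 239) at day 14, a rise of 1.02 ± 0.20 (adjusted p = 0.0025) from day 3. Pfkfb3 followed the same course, from 274, 296, 300, 323 and 628 CPM in controls to 77.3 to 220 CPM (median 109) at day 3 (-1.51 ± 0.36, adjusted p = 0.0031) and 159 to 651 CPM (median 295) at day 14 (1.44 ± 0.34, adjusted p = 0.0081 from day 3). Both genes kept their day 3 call without control replicates 1 and 2, Bnip3 at -1.01 (adjusted p = 0.00083) and Pfkfb3 at -1.17 (adjusted p = 0.025).

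The other bursa calls at day 3 did not hold without these control libraries. Ldhb held 160, 193, 216, 999 and 1024 CPM in control bursa and 53 to 170 CPM (median 86.4) at day 3 (-2.29 ± 0.51, adjusted p = 0.0021), which became -0.83 (adjusted p = 0.081) without control replicates 1 and 2. Its share of lactate dehydrogenase counts went from 43.4% ± 5.84 to 19.6% ± 6.17 and 34.4% ± 4.25 at day 14. Pdk1 (-1.04 ± 0.25, adjusted p = 0.0035), Egln1 (-0.83 ± 0.23, adjusted p = 0.0099) and Pfkp (-0.77 ± 0.30, adjusted p = 0.049) likewise missed the threshold without both libraries, at -0.50 (adjusted p = 0.067), -0.29 (adjusted p = 0.094) and -0.29 (adjusted p = 0.46). Pfkp also missed it when any of 8 single libraries was left out. Egln3 was lower at day 3 (-1.29 ± 0.42, adjusted p = 0.022) and at day 14 (-1.60 ± 0.42, adjusted p = 0.02), from 14.8, 16.8, 19.3, 27.9 and 37.5 CPM to 6.06 to 8.69 CPM (median 7.67), and without control replicate 1 these became -1.04 (adjusted p = 0.067) and -1.35 (adjusted p = 0.055). Without control replicates 1 and 2 they were -1.03 (adjusted p = 0.1) and -1.37 (adjusted p = 0.08). Car9 fell from day 3 to day 14 in bursa (-1.87 ± 0.62, adjusted p = 0.045), a call lost when any of 9 single libraries was left out, although all day 14 libraries (0.155 to 1.17 CPM) lay below all day 3 libraries (1.27 to 3.49 CPM). Control replicate 4 held 3.93 CPM of Car9 and the other controls 0.175 to 0.582 CPM. In the fit with all libraries, Slc16a3, at 0.87 ± 0.49 (adjusted p = 0.17) at day 3, and the glycolytic enzymes other than Pfkp did not pass in bursa at either day. Without control replicates 1 and 2, the day 3 calls included members that had not passed with them, which are not named here.

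Control bursa and control tendon differed in 19 members, with 6 higher and 13 lower in bursa, against 27.4% and 20.6% of all features. Without bursa control replicates 1 and 2 the split was 2 higher and 18 lower. That fit called 9492 of 19854 features in either direction, in place of 9291 of 19337. Slc16a3 was lower in bursa, at 2.64, 2.81, 3.12, 8.08 and 14.5 CPM against 52.1, 53.8, 54.1, 81.8 and 94.4 CPM in tendon (-3.45 ± 0.40, adjusted p = 2.4e-09). Pfkfb3 was higher (1.76 ± 0.29, adjusted p = 2.5e-06), and its lowest bursa library, at 274 CPM, lay above the highest tendon library, at 189 CPM. Pfkl was higher too, at 65.9, 68.7, 81.5, 151 and 206 CPM in bursa (1.65 ± 0.21, adjusted p = 2.6e-08). Without bursa control replicates 1 and 2, Slc16a3 was -3.95 (adjusted p = 3e-09), Pfkfb3 1.35 (adjusted p = 0.00027) and Pfkl 0.90 (adjusted p = 1.4e-05). Eno1 (1.35 ± 0.32, adjusted p = 0.00053), Pgam1 (1.51 ± 0.31, adjusted p = 0.00011), Ldhb (1.84 ± 0.49, adjusted p = 0.0018) and Pdk1 (0.81 ± 0.19, adjusted p = 0.00053) were higher on the means. Without bursa control replicates 1 and 2 they did not pass, with Pgam1 at 0.10 (adjusted p = 0.73), Ldhb at 0.32 (adjusted p = 0.61) and Pdk1 at 0.20 (adjusted p = 0.34), and Eno1 turned to -0.13 (adjusted p = 0.64). Muscle RNA differed between these groups as given above, and Pgam2 was 0.03 with the muscle level in the fit in place of -3.45.

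The response to injury was compared between bursa and intact tendon as a difference of 2 log2 fold changes, which 13 members passed at day 3 (5 higher and 8 lower in bursa) and 17 at day 14 (12 higher and 5 lower). Without bursa control replicates 1 and 2 the split at day 3 turned to 13 higher and 5 lower, and at day 14 it was 20 and 5. That fit called 5362 of 19854 features at day 3, in place of 4131 of 19337, and 7852 in place of 6098 at day 14. In the fit with all libraries, 8.51% of all features were higher and 12.9% lower at day 3, and 14% and 17.6% at day 14. Hif1a rose less in bursa at day 14, by -1.26 ± 0.21 (adjusted p = 1.7e-05), and stayed at -1.15 (adjusted p = 0.00036) with the muscle level in the fit. Adm rose more in bursa, by 1.21 ± 0.42 (adjusted p = 0.036) at day 3 and 1.38 ± 0.42 (adjusted p = 0.011) at day 14. The day 3 value missed the threshold when any of 11 single libraries was left out, for example at 1.07 (adjusted p = 0.074) without bursa control replicate 2. Pfkl differed by -1.80 ± 0.28 (adjusted p = 1e-05) at day 3 and -1.22 ± 0.28 (adjusted p = 0.00091) at day 14, which became -1.03 (adjusted p = 0.00027) and -0.49 (adjusted p = 0.061) without bursa control replicates 1 and 2. Car9 differed by -3.58 ± 0.76 (adjusted p = 0.00036) at day 14. Without those libraries Car9 was -3.98 (adjusted p = 6.3e-05) and Hif1a -0.92 (adjusted p = 0.00029) at day 14, and Adm 0.99 (adjusted p = 0.1) at day 3 and 1.14 (adjusted p = 0.042) at day 14. Of the calls made with those libraries, 7 remained at day 3 and 15 at day 14 without them. The day 3 values of Eno1 (-0.43, adjusted p = 0.23), Pgam1 (-0.41, adjusted p = 0.27), Pdk1 (-0.11, adjusted p = 0.77) and Pfkfb3 (-0.61, adjusted p = 0.26) then missed the threshold, and Eno1 at day 14 turned from -1.13 to 0.34 (adjusted p = 0.32).

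Neighbouring pathways were followed in fixed lists, whose counts stand beside 30.9% higher and 30.6% lower among all features at day 3 intact, 32.3% and 30.2% at day 14 intact, and 20.5% and 22.2% in bursa at day 3. Of 16 other glycolysis and pyruvate genes with a level, 3 were higher and 13 lower at day 3 intact and 3 and 12 at day 14 intact, with a median log2 fold change of -1.52 and -1.59. Hk3, a hexokinase found in white blood cells, was higher (5.11 ± 0.41, adjusted p = 4.8e-11), and the muscle enolase Eno3 (-3.89 ± 0.55, adjusted p = 8.1e-07) and the insulin-responsive glucose transporter Slc2a4 (-3.17 ± 0.44, adjusted p = 5.2e-07) were lower, all at day 3 intact. Of 22 other hypoxia genes, 10 were higher and 9 lower at day 3 intact, with a median of 0.03. Hmox1, which degrades haem, rose from 5.21 to 13.3 CPM to 421 to 984 CPM (6.41 ± 0.33, adjusted p = 7.5e-15), and the collagen-modifying enzymes Lox (3.45 ± 0.31, adjusted p = 3.6e-10) and Plod2 (1.81 ± 0.23, adjusted p = 1.3e-07) rose too. Of 6 pentose phosphate genes, 5 were higher and 1 lower at day 3 intact, among them Tkt, transketolase, at 1.13 ± 0.10 (adjusted p = 5.8e-10). All 6 fell from day 3 to day 14 with the bursa intact, beside 19.8% of all features. In bursa at day 3, 2 of the other glycolysis genes were higher and 9 lower, 7 of the other hypoxia genes were higher and 7 lower, and 0 pentose phosphate genes were higher and 2 lower. Hmox1 (4.73 ± 0.28, adjusted p = 2.8e-08) and Hk3 (4.93 ± 0.59, adjusted p = 1e-05) had large rises there as well.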

How the data were processed

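Poly-A RNA from bursa and tendon was sequenced on an Illumina instrument after TruSeq library preparation, per the labels' protocols. The authors deposited estimated counts per transcript, made with kallisto 0.44.0 after bcl2fastq 2.19, per the submitters' processing notes. No source used here names the genome build. The 11 tables of comparisons that the authors deposited give a mean signal (normalised count), log2 fold changes and p-values per gene, made with DESeq2 per the same notes. The tables pair symbols with values but not with transcripts. A symbol was therefore matched to the transcript, or sum of up to 3, whose group means gave the deposited means. The limit was 0.5% (0.2% for 3), or 5% for a pair of main transcripts. A single main transcript was accepted when it followed the deposited means closely across comparisons, even if it held only part of them. Pfkfb3, matched in this way, held 90.9% of its deposited means, and the muscle marker Tnni2 held 77.9%. The matching found 124 of 154 list symbols and 34 of 35 members. Of these, 26 rest on 1 transcript, 2 on a sum and 6 on main transcripts, so a minor isoform may be missing. With the match hidden a second search, by the rule for full matches only, found another candidate for 0 of 34. The 6 members on main transcripts had already failed that rule, so this search does not test their matches. Log2 fold changes from the matched counts differed from the deposited ones by a median of 0.0039 over 1296 values, which shares its groups with the matching.

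Counts were rounded, list genes were summed per symbol, and all other transcripts stayed single features. edgeR 4.0.16 in R 4.3.3 was used with TMM scaling, filterByExpr and the quasi-likelihood test. All bursa groups (17 libraries) or all tendon groups (29) entered 1 fit, and comparisons across tissues used 46. Called means a Benjamini-Hochberg adjusted p under 0.05 over all features. Levels are TMM-scaled counts per 1000000 (CPM) over 46 libraries and are not comparable between genes, since transcript lengths were not given. The scripts were tested on simulated data. Alternatives were DESeq2 1.42.0, RLE size factors, no filter, the compared groups alone, a replicate block, the muscle markers' mean level as a covariate, and leaving out each library. Values are given per library for members called against control without overlap, up to 4 per role and comparison by size, and other lists by their 4 largest called changes at most, of which 1 gene is not reported here. The members and lists were chosen with earlier results of these data known.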

Additional observations from a re-analysis of the deposited data

Results flagged for a closer look

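Single libraries stood apart from the rest of their group in 33 of 271 sets of values (1 gene in 1 group of 5 or 6 libraries), by the gap to the nearest library relative to the range. Chance gives about 5% for independent, normally distributed values. Most flags were high values and several members were flagged in the same library, so that share is not a test here. Removed tendon of day 14, replicate 4, was high in 7 members, with Aldoa at 1690 CPM, Gpi at 278 CPM, Ldha at 754 CPM, Ldhb at 54.8 CPM, Pfkm at 401 CPM, Pgam2 at 340 CPM and Pkm at 614 CPM. Its muscle sum of 24000 CPM was the highest of its group. Removed tendon of day 3, replicate 1, with a muscle sum of 30800 CPM, was high in Aldoa at 3050 CPM, Egln1 at 44 CPM, Gpi at 324 CPM, Ldhb at 88.8 CPM, Pfkm at 587 CPM and Pgam2 at 358 CPM, and low in Aldoc at 2.83 CPM. Replicate 2 of the same group was high in Car12 at 4.39 CPM, Car9 at 15.7 CPM and Pdk1 at 26.8 CPM.

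Among intact tendons, day 3 replicate 6 was high in Adm at 17.7 CPM, day 3 replicate 5 was low in Ldha at 565 CPM and Tpi1 at 246 CPM, and day 14 replicate 6 was high in Car12 at 2.06 CPM. Control tendon replicate 2 was apart in Aldoc at 22.6 CPM. Control bursa replicate 1 was high in Pfkm at 846 CPM and Pgam2 at 307 CPM, replicate 2 in Pfkfb3 at 628 CPM, and replicate 4 was apart in Aldoc at 9.43 CPM, Car9 at 3.93 CPM and Slc2a1 at 21.5 CPM. Bursa of day 3, replicate 5, was high in Aldoa at 1450 CPM and Bnip3 at 189 CPM. At day 14, bursa replicate 2 was high in Pfkl at 99.9 CPM, replicate 4 in Ddit4 at 77 CPM, and replicate 6, the most deeply sequenced library, was apart in Bnip3 at 315 CPM.

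The change after injury differed between bursa and intact tendon in the test of the difference for 13 members at day 3 and 17 at day 14. Values are the bursa log2 fold change minus that of tendon. At day 3 it was higher in bursa for Adm (1.21), Aldoc (0.98), Egln1 (0.77), Slc16a3 (1.43) and Tpi1 (1.12). It was lower for Car12 (-4.06), Car9 (-2.13), Eno1 (-1.93), Pdk1 (-0.74), Pfkfb3 (-1.04), Pfkl (-1.80), Pgam1 (-1.85) and Slc2a1 (-0.96). Without bursa control replicates 1 and 2, Adm, Aldoc, Eno1, Pdk1, Pfkfb3 and Pgam1 missed the threshold at day 3. Without bursa control replicate 4, Car9 became -0.69 (adjusted p = 0.53) and Car12 -2.53 (adjusted p = 0.095). Egln1, Slc16a3 and Tpi1 also missed it in some fits that left out a single library. With the muscle level in the fit, Car9 (adjusted p = 0.23), Car12 (0.062), Slc16a3 (0.068) and Slc2a1 (0.055) missed it. At day 14 it was higher for Adm (1.38), Aldoa (2.46), Bnip3 (1.30), Egln1 (1.00), Egln3 (1.44), Gpi (0.76), Pfkfb3 (1.21), Pfkfb4 (1.49), Pfkm (2.30), Pgam2 (3.47), Slc16a3 (1.71) and Tpi1 (1.49). It was lower for Car12 (-3.86), Car9 (-3.58), Eno1 (-1.13), Hif1a (-1.26) and Pfkl (-1.22). Of these, Eno1 and Pfkl missed the threshold without bursa control replicates 1 and 2, and Car12 without replicate 4 (-2.32, adjusted p = 0.12). Pfkfb4 also missed it without replicate 4 (1.30, adjusted p = 0.05). Egln3 missed it without, among others, bursa control replicate 3 (1.31, adjusted p = 0.071). The losses named for single libraries at day 14 are examples and not a full list. With the muscle level in the fit, Bnip3, Car12, Egln3, Gpi, Pfkfb3, Pfkfb4, Pfkm, Pgam2, Slc16a3 and Tpi1 missed it at day 14. Control tendon held 45900 to 72100 CPM of muscle markers and control bursa 681 to 24700 CPM, and the muscle isoforms are among these members.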

How the results depend on the processing

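Of 206 calls of a member in a comparison, 206 held with DESeq2, 205 with RLE size factors, 196 without the count filter, 180 with only the compared groups in the fit and 117 with muscle level as a covariate, where 11 changed sign. DESeq2 called 15 members in bursa at day 3 and 5 at day 14. With only the compared groups in the fit, 1 was called in bursa at day 14, 8 between the bursa days, 12 between the control tissues, and 6 in the bursa minus tendon response at day 3. The muscle covariate left 3 at day 3 intact, 9 at day 3 removed and 8 in the bursa minus tendon response at day 14. Over all features the covariate gave 3596, 4514 and 3849 calls in place of 11271, 10749 and 6098. The signs that turned with it, each below the threshold afterwards, were Hk1 at -0.17, -0.23, -0.12 and -0.0457 (day 3 intact, day 3 removed, day 14 intact, day 14 removed), Pfkfb4 at 0.0400 and 0.0806 (day 3 intact and removed), Pfkl at -0.23 and -0.0500 (day 14 intact and removed), and Pgam2 at 0.30 and 0.25 (day 14 intact and removed) and 0.0345 (control bursa over control tendon). Leaving out bursa control replicates 1 and 2, chosen after seeing the data, turned Eno1 to -0.13 between the controls and to 0.34 in the day 14 response. The cause of these moves was not tested.

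Leaving out 1 library at a time gave 8 to 16 called members for bursa day 3, 1 to 5 for day 14 and 2 to 4 between the bursa days (2 without day 14 replicate 3 or day 3 replicate 4). It gave 28 to 29 and 27 to 30 for tendon day 3 intact and removed, 28 to 28 and 27 to 29 for day 14 intact and removed, 15 to 17 and 11 to 15 between the tendon days intact and removed, 0 to 0 for removed over intact, 18 to 22 between the control tissues, and 9 to 17 and 15 to 22 for the bursa minus tendon response at day 3 and 14. Of 2610 single calls refitted this way, 154 missed the threshold.

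Replicate numbers shared between groups were not shown to pair libraries, since no comparison had a correlation above 0.1 in every pair. Removed and intact tendon came nearest, at 0.0801 to 0.355 at day 3 (4 of 6 libraries correlating best with their own number) and 0.0596 to 0.27 at day 14 (6 of 6). The mean correlation with other numbers was -0.0318 and -0.034. These libraries may share a rat, and the main tests of removed over intact tendon used no such pairing. With a replicate block, 0 members were called between removed and intact tendon at either day. The block gave 4 members for bursa day 3, 0 for day 14, 8 between the bursa days, 7 between the removed tendon days, 11 between the control tissues, and 6 and 11 for the bursa minus tendon response at day 3 and 14. It gave 24, 25, 27 and 28 for injured tendon (day 3 intact and removed, day 14 intact and removed) and 17 between the intact tendon days. Depth limits Car9, Car12 and Adm, at a few CPM in controls.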
